A study of Mus musculus with 20 samples.

Results

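The 7 genes described here encode enzymes that make, hydroxylate or inactivate steroid hormones in the ovary. They are Cyp17a1, Cyp19a1, Hsd17b1, Cyp1b1, Sult1e1, Hsd11b1 and Hsd11b2. They were chosen by name, as enzymes of estrogen synthesis and steroid hydroxylation, out of 55487 gene identifiers, and were matched by their GENCODE symbols. Expression was measured in granulosa cells (GCs), the somatic cells that line the ovarian follicle, by sequencing the 3′ ends of polyadenylated transcripts. The 20 samples came from 20 mice, with 5 mice in each of 4 groups: ctrl mice in estrus, FL1 mice in estrus, ctrl mice in diestrus and FL1 mice in diestrus. FL1, the Dummerstorf high fertility line 1, was bred for reproductive performance, and ctrl is the unselected line of the same origin. The mice were 77 ± 5 days old, and the cycle stage was read from vaginal smears. From each mouse 7 to 10 of the largest follicles were opened, and care was taken to leave out the oocyte with its cumulus cells. A sample is thus meant as a pool of mural GCs from several follicles of a single mouse.

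Estrogen is made in the follicle by cooperation of cell layers. Theca cells outside the follicle wall convert cholesterol to androgens with CYP17A1. GCs take up the androgens and convert them with aromatase (CYP19A1) and 17-beta-hydroxysteroid dehydrogenase type 1 (HSD17B1) to estradiol, under the control of follicle stimulating hormone. CYP1B1 hydroxylates estrogens, SULT1E1 sulfates them to an inactive form, and the enzymes HSD11B1 and HSD11B2 activate and inactivate glucocorticoids.

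In GCs of FL1 mice Cyp1b1 was 4.54-fold weaker expressed than in ctrl mice in estrus, with every FL1 sample below every ctrl sample. Cyp17a1 was 8.97-fold higher in diestrus than in estrus of ctrl mice. Of the other 12 theca marker genes tested edgeR called none higher there, and DESeq2 called 3, of which only Fbxo32 was higher. Cyp19a1 was fitted 3.16-fold and 2.79-fold higher in diestrus than in estrus of ctrl and FL1 mice, but neither value passed edgeR's test over all genes. DESeq2 called it in FL1 mice and edgeR without a filter on low counts in both lines, and neither tool called it between the lines. Hsd11b2 was 1.92-fold higher in FL1 mice over both stages, close to the threshold. Sult1e1 had no read in any sample, and Hsd11b1 had reads in 5 samples, each of them in estrus.

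Levels are given as CPM, the count per 1000000 reads counted on genes, with library sizes scaled by TMM. Between 5446576 and 8257041 reads per sample were counted on genes. Because each transcript gives reads only at its 3′ end, levels are not divided by length. Lines and stages were compared with edgeR's quasi-likelihood test over all genes that passed a filter on low counts, and a gene was called at a Benjamini-Hochberg adjusted p of 0.05 or less. Sult1e1 and Hsd11b1 did not pass the filter in any comparison, so 5 of the 7 genes were tested. In a bulk sample fewer cells of a type and less RNA per cell cannot be told apart.

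Of these 5 genes 1 was called between the lines in estrus, where 0.769% of all 13007 genes tested were called. In diestrus none was called by edgeR (2 had an unadjusted p under 0.05, and DESeq2 called 1), with 0.248% of 12886 genes called. Between diestrus and estrus 1 of the 5 was called in ctrl mice, beside 1.36% of 12850 genes. In FL1 mice edgeR called 0 of the 5 (3 had an unadjusted p under 0.05, and DESeq2 called 1), beside 0.221% of 13114 genes. Over both stages, with stage as a covariate, 2 of the 5 were called between the lines, beside 1.21% of 14938 genes. The difference of the line effects between the stages, tested as an interaction, gave 0 called members (0 at an unadjusted p under 0.05, and 0 in DESeq2) and a percentage of 0 over the same 14938 genes, of which 710 had an unadjusted p under 0.05 and DESeq2 called 0. Over all genes tested by edgeR, 10.7% had an unadjusted p under 0.05 between the lines in estrus and 5.56% in diestrus. Between the stages these shares were 11.8% in ctrl and 9.48% in FL1 mice, and over both stages 11.0%. The shares belong beside all counts of unadjusted p-values given here and below for lists of genes.

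**Figure D1:**
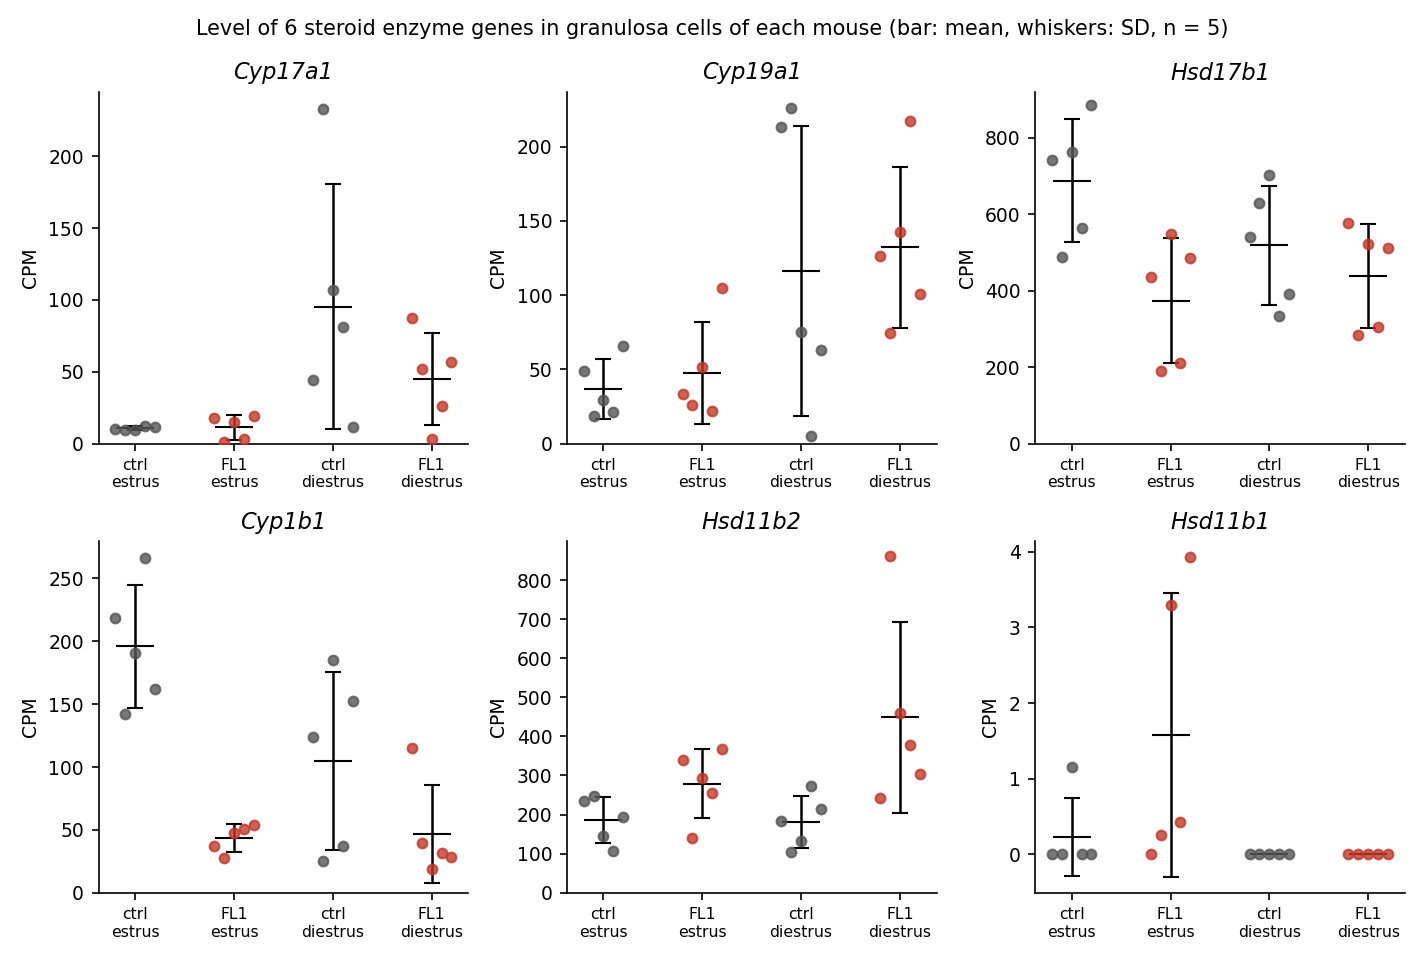
Each panel shows the CPM of a gene on a linear axis in each mouse of the 4 groups (points, grey ctrl and red FL1), with the mean (horizontal bar) and the SD (whiskers, n = 5). Cyp1b1 of FL1 mice in estrus lies between 27.3 and 53.9 CPM, below the ctrl mice in estrus at 142 to 267 CPM, and Cyp17a1 and Cyp19a1 reach their highest values in diestrus.

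The samples were checked with marker genes of GCs. The 12 genes of the GC list, among them Fshr, the FSH receptor, Foxl2, a transcription factor of ovarian identity, and Inha, an inhibin subunit, together reached 8730 to 24772 CPM in every sample. The 8 oocyte marker genes summed to 61.4 to 541 CPM over the 20 samples, although the oocyte was to be left out. Without Hsd17b1 and Cyp19a1, which belong to the list too, 10 genes remain, of which 0 were called between the lines in estrus (3 had an unadjusted p under 0.05) and 0 of 9 tested in diestrus (0 had an unadjusted p under 0.05). DESeq2 called 0 of these genes in either stage. Between diestrus and estrus of ctrl mice 2 of the 10 were called by edgeR (6 had an unadjusted p under 0.05) and 4 by DESeq2. Fshr was higher in diestrus, and Amhr2, the receptor of anti-Müllerian hormone, was lower (log2 fold change −0.96, SE 0.20, adjusted p = 0.023), a call that held in 5 of 10 fits with a sample left out and not without ctrl estrus replicates 2, 3 or 4 or ctrl diestrus replicates 3 or 5. In FL1 mice edgeR and DESeq2 called 0 between the stages (3 had an unadjusted p under 0.05). Markers of luteal cells, the cells that GCs become after ovulation, differed between the lines most clearly in estrus. The summed level of the 7 luteal genes was 246 to 614 CPM in ctrl mice and 1655 to 4391 CPM in FL1 mice in estrus, and 367 to 772 CPM against 483 to 3101 CPM in diestrus. In estrus edgeR called 3 of the 7 higher in FL1 mice, Lhcgr, Akr1c18 and Prlr, and DESeq2 called 4. The call of Lhcgr was lost without ctrl replicates 1, 2 or 4 or FL1 replicate 2. In diestrus edgeR called 0 of the 7 (3 had an unadjusted p under 0.05), and DESeq2 called 1. The summed levels of macrophage and red blood cell markers also reached higher values in FL1 mice, with overlap of the lines. The 8 macrophage genes summed to 23.6 to 59.8 CPM in ctrl and 43.5 to 121 CPM in FL1 mice in estrus, and to 7.87 to 19.999 CPM against 13.8 to 91.9 CPM in diestrus. Over both stages each of the 8 had a positive log2 fold change between the lines (median 1.88, 5 with an unadjusted p under 0.05), and Lyz2, a lysozyme, was called (2.09, SE 0.38, adjusted p = 0.00226). The 5 red blood cell genes summed to 293 to 681 CPM in ctrl and 324 to 1115 CPM in FL1 mice in estrus, and to 47.7 to 352 CPM against 137 to 1614 CPM in diestrus. The 4 of them that were tested had positive values over both stages (median 1.16, 4 with an unadjusted p under 0.05), and edgeR and DESeq2 called 0. Positive over both stages were also the 5 endothelial genes tested (median 1.04, 2 with an unadjusted p under 0.05) and 5 surface epithelium genes (median 0.49, 0 under 0.05). Of 13 theca genes tested without Cyp17a1 11 were positive and 2 negative (median 0.44, 5 under 0.05). EdgeR and DESeq2 called 0 in these 3 lists. None of the line differences below was tested for the part that these cells play in it.

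Cyp17a1 (ENSMUSG00000003555, GRCm38 chromosome 19, 46667165 to 46673172, minus strand) encodes the hydroxylase and lyase that turns progestins into androgens. In ctrl mice in estrus the samples had 10.3, 9.46, 9.36, 12.2 and 11.7 CPM, the narrowest spread around its mean of any tested member and group (10.6 ± 1.29 CPM, SD, n = 5). In ctrl mice in diestrus they had 44.0, 233, 106.9, 81.1 and 11.5 CPM (95.3 ± 85.1 CPM, SD, n = 5). Of the 5 diestrus samples 4 lay above every estrus sample, and replicate 5 lay within the estrus range. In edgeR the log2 fold change was 3.16 (SE 0.54, adjusted p = 0.0069), and the call held whichever of the 10 samples was left out. Without replicate 2 in diestrus the value was 2.53 (adjusted p = 0.012).

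In FL1 mice Cyp17a1 was at 17.4, 1.13, 15.2, 2.96 and 19.3 CPM in estrus (11.2 ± 8.52 CPM, SD, n = 5). In diestrus it was at 87.3, 52.2, 2.93, 26.2 and 56.7 CPM (45.1 ± 32.0 CPM, SD, n = 5). Again 4 of 5 diestrus samples exceeded every estrus sample, but replicate 3 was as low as the lowest estrus samples. The log2 fold change of 2.02 (SE 0.72) did not pass the test (adjusted p = 0.314 in edgeR), although it did when no filter on low counts was applied (adjusted p = 0.00346). The stage difference was not shown to differ between the lines (interaction −1.14 on the log2 scale, SE 0.93, unadjusted p = 0.232). Between the lines Cyp17a1 was not called in estrus (log2 fold change 0.07, SE 0.63, adjusted p = 0.991) or in diestrus (−1.06, SE 0.67, adjusted p = 1.00).

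Cyp17a1 is a marker of theca cells, so its level was set beside 14 other genes of that kind, among them the hedgehog target Ptch1, the transcription factor Nr2f2 and the fibrillar collagens of the theca stroma. Their summed level was 1042 to 2525 CPM in ctrl mice in estrus and 642 to 1528 CPM in ctrl mice in diestrus, where Cyp17a1 was higher. Of the 12 that were tested between the stages in ctrl mice 11 had a negative log2 fold change, with a median of −0.67, where all genes tested had a median of 0.00. Col3a1, a collagen, was called lower (−1.64, SE 0.35, adjusted p = 0.0265), but not without ctrl estrus replicates 2, 3 or 4 or ctrl diestrus replicates 4 or 5. Fbxo32, a ubiquitin ligase subunit, had the only positive value (1.18, SE 0.35, adjusted p = 0.137 in edgeR), and DESeq2 called it (adjusted p = 0.0486). DESeq2 called 3 of the 12 in all, and its calls other than Fbxo32 were of genes with a negative value. In FL1 mice the summed level was 1655 to 2838 CPM in estrus and 948 to 2531 CPM in diestrus, and 9 of 13 tested genes had a negative value and 4 a positive one.

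Within diestrus the samples with more Cyp17a1 mostly had more of the other theca markers. In FL1 mice replicates 1 to 5 had summed levels of 2531, 2035, 948, 1272 and 1759 CPM, and replicate 1 was highest and replicate 3 lowest in both Cyp17a1 and the sum. In ctrl mice in diestrus the sums were 642, 1463, 1528, 959 and 965 CPM, and replicates 2 and 3 were the 2 highest in both, while replicate 5, the lowest in Cyp17a1, had the third highest sum. In estrus the 2 levels did not go together in this way. In FL1 mice in estrus replicate 2 was lowest in both (1.13 CPM of Cyp17a1 and a sum of 1655 CPM). Replicate 4, however, had 2.96 CPM of Cyp17a1 and a sum of 2440 CPM, and replicate 5 had 19.3 CPM and a sum of 2055 CPM. In ctrl mice in estrus replicate 3 had the lowest Cyp17a1 (9.36 CPM) and the highest sum (2525 CPM). The part of theca cells in the level of Cyp17a1 was not tested.

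Whether the stage difference of Cyp17a1 differs from that of the other genes of the list was not tested. Insl3, a hormone that theca cells make in large amounts, cannot be used for this check. The gene (GRCm38 chromosome 8, 71689214 to 71690575, plus strand) lies within Jak3 (71676296 to 71690575) on the same strand and ends at the same base, and reads that fall in both genes are commonly left uncounted. Its 1 read in the 20 samples therefore says nothing about its expression.

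**Figure D2:**
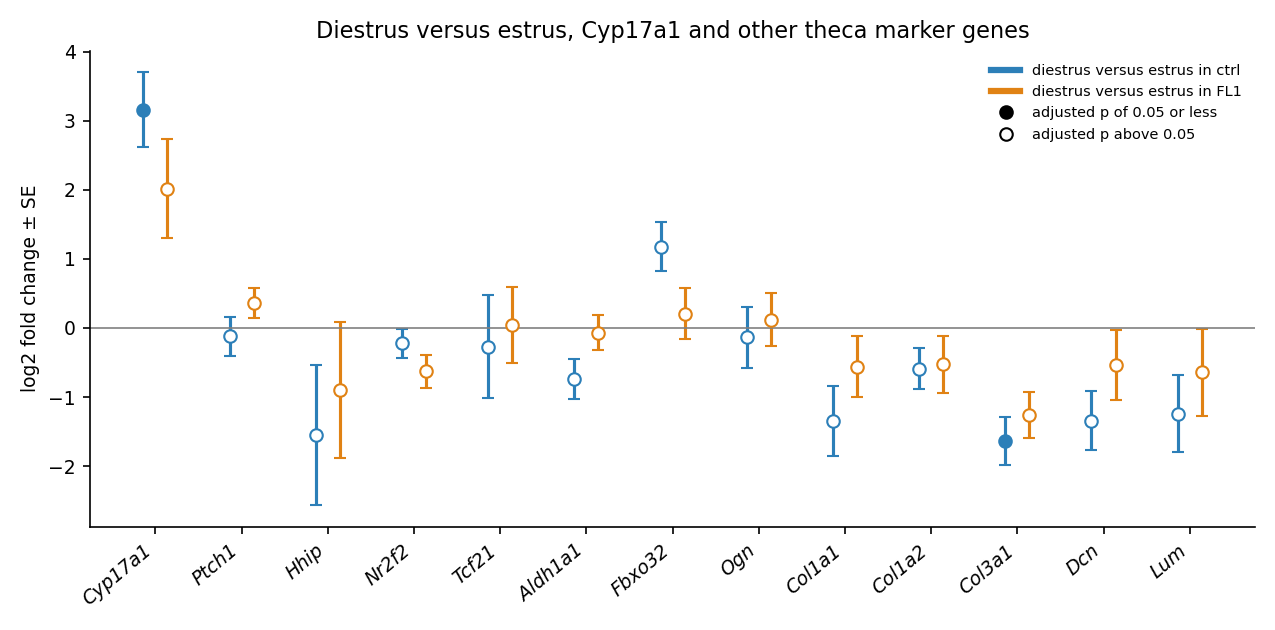
The log2 fold change (± SE, edgeR) between diestrus and estrus is shown for Cyp17a1 and the 12 other theca marker genes tested in ctrl mice, in ctrl (blue) and FL1 mice (orange), with filled points at an adjusted p of 0.05 or less. Cyp17a1 stands at 3.16 and 2.02, whereas 11 of the 12 other genes lie below 0 in ctrl mice.

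Cyp19a1 (ENSMUSG00000032274, chromosome 9, 54165937 to 54268110, minus strand) encodes aromatase, which converts androgens to estrogens. In ctrl mice in estrus its level was 49.1, 18.3, 29.2, 21.4 and 66.0 CPM (36.8 ± 20.3 CPM, SD, n = 5). In ctrl mice in diestrus it was 213, 226, 75.5, 5.0 and 62.8 CPM (116.5 ± 97.9 CPM, SD, n = 5). The groups overlapped, since 3 diestrus samples lay above every estrus sample and replicate 4 lay below all of them. A log2 fold change of 1.66 (SE 0.62) was found, and the adjusted p was 0.263 in edgeR. This replicate decided the call, because without it the log2 fold change was 1.97 (adjusted p = 0.0384). Without a filter on low counts edgeR called the gene with all samples (adjusted p = 0.00611), in a setting that called 348 genes in place of 175.

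In FL1 mice the samples had 33.5, 25.9, 51.5, 21.7 and 105.1 CPM of Cyp19a1 in estrus (47.6 ± 34.2 CPM, SD, n = 5) and 126, 74.2, 143, 217 and 100.6 CPM in diestrus (132 ± 54.2 CPM, SD, n = 5). Of the diestrus samples 3 exceeded every estrus sample, and replicate 5 in estrus stood apart from the other estrus samples at the level of diestrus. Here edgeR gave a log2 fold change of 1.48 (SE 0.39, adjusted p = 0.123 in edgeR). DESeq2 called it (adjusted p = 0.0127), and edgeR called it without that replicate (log2 fold change 1.996, adjusted p = 0.0251). The interaction of line and stage was −0.17 on the log2 scale with an SE of 0.78. Between the lines the log2 fold change was 0.36 in estrus (SE 0.43, adjusted p = 0.865) and 0.20 in diestrus (SE 0.59, adjusted p = 1.00). The value in estrus was −0.15 without FL1 replicate 5, and that in diestrus was −0.11 without ctrl replicate 4 and −0.06 without FL1 replicate 4.

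A list of 14 genes that regulate aromatase or act beside it in GCs was examined gene by gene. Between the stages in ctrl mice 2 were called by edgeR, both higher in diestrus. Fshr rose from a mean of 45.5 to 149 CPM (log2 fold change 1.71, SE 0.23, adjusted p = 0.00155). Nr0b1, which encodes the repressor DAX1, rose from 3.01 to 26.0 CPM (3.10, SE 0.55, adjusted p = 0.00977), and without ctrl estrus replicate 1 the value was 3.73. Inhba, which encodes the activin and inhibin beta A subunit, had a log2 fold change of 1.88 (SE 0.47, adjusted p = 0.0578 in edgeR), and DESeq2 called it (adjusted p = 0.0404). In FL1 mice edgeR and DESeq2 called 0 of the 14 between the stages (5 had an unadjusted p under 0.05), with Fshr at 0.96 (SE 0.29, adjusted p = 0.197) and Inhba at 1.04 (SE 0.37, adjusted p = 0.315). Between the lines in estrus Cited4, a transcriptional coactivator, was called higher in FL1 mice (2.51, SE 0.49, adjusted p = 0.0149), and edgeR and DESeq2 did not call the other 13. FL1 replicate 2 had 240 CPM of Cited4 and the other 4 FL1 samples 27.7 to 96.96 CPM, so that the FL1 mean of 90.6 CPM was 53.1 CPM without it (log2 fold change 1.74, adjusted p = 0.0486). The call was lost without ctrl replicate 3 (adjusted p = 0.054). The steroidogenic factors Nr5a1 and Nr5a2 and the GC factors Foxl2 and Gata4 were not called in any comparison.

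Over the 20 samples the genes whose log2 CPM was most like that of Cyp19a1, out of 14937, were Grin2b (Pearson's r = 0.82, Spearman's rho = 0.75), Lama4 (r = 0.76, rho = 0.75) and Inhba (r = 0.76, rho = 0.84). These values describe samples that share groups and are given without a test. With the group means removed r was 0.80, 0.71 and 0.70. Inhba shared the low value of Cyp19a1 in replicate 4 of ctrl mice in diestrus, where it had 661 CPM and the other 4 samples had 1733 to 4203 CPM. Fshr did not share it, with 198 CPM in that sample and 101.6 to 202 CPM in the others.

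Hsd17b1 (ENSMUSG00000019301, chromosome 11, 101078411 to 101080527, plus strand) encodes the dehydrogenase that reduces estrone to estradiol. Ctrl mice in estrus had 740.2, 487, 761, 564 and 884 CPM (687 ± 159.9 CPM, SD, n = 5). FL1 mice in estrus had 435, 189, 549, 211 and 484 CPM (374 ± 164 CPM, SD, n = 5). Of the FL1 samples 4 lay below every ctrl sample, and replicate 3 lay within the ctrl range. The log2 fold change of −0.89 (SE 0.28) did not pass the test in edgeR (adjusted p = 0.174). DESeq2 gave an adjusted p of 0.0439, and edgeR without a filter on low counts gave 0.0167, so the call depends on the setting.

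In diestrus the lines were closer. Hsd17b1 was at 539.5, 629, 701, 333 and 391.7 CPM in ctrl mice (519 ± 155 CPM, SD, n = 5) and at 576, 282, 523, 304 and 512 CPM in FL1 mice (439 ± 136 CPM, SD, n = 5). Of the FL1 samples 2 lay below every ctrl sample and 2 ctrl samples lay above every FL1 sample, and the log2 fold change was −0.23 (SE 0.25, adjusted p = 1.00 in edgeR). The change of the line difference with stage was 0.65 on the log2 scale (SE 0.40, unadjusted p = 0.113) and did not pass the test. Between the stages Hsd17b1 was not called in ctrl mice (−0.41, SE 0.23, adjusted p = 0.544) or in FL1 mice (0.23, SE 0.30, adjusted p = 0.894). The genes most like it over the 20 samples were Tfip11 (r = 0.84, rho = 0.81), Lta4h (r = 0.78, rho = 0.81) and Sec61g (r = 0.77, rho = 0.66).

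Of 11 further 17-beta-hydroxysteroid dehydrogenases 10 were found, and 5 to 7 were tested in each comparison. With edgeR 0 were called in any comparison (at most 2 had an unadjusted p under 0.05), and DESeq2 called 1, between the stages in FL1 mice. Hsd17b7, which acts on estrone and in cholesterol synthesis, had the lowest p there. Its mean was 288 CPM in FL1 mice in diestrus and 51.6 CPM in their estrus (log2 fold change 2.50, SE 0.55, adjusted p = 0.0675 in edgeR). Replicate 1 in diestrus had 866 CPM and the other 4 samples 75.0 to 249 CPM. Without it the mean was 144 CPM and the log2 fold change 1.48 (adjusted p = 0.0449). In ctrl mice its means were 74.8 and 52.7 CPM. Hsd17b2, which oxidizes estradiol back to estrone, had mean levels of 1.05 to 4.41 CPM in the 4 groups.

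Cyp1b1 (ENSMUSG00000024087, chromosome 17, 79701537 to 79715061, minus strand) encodes the monooxygenase that adds a hydroxyl group to estradiol. Its gene is a known target of the aryl hydrocarbon receptor (AHR), a transcription factor that binds with its partner ARNT to a site with the core GCGTG. Since Cyp1b1 was the member with the clearest line difference, the 250 bases before its start are printed here from RefSeq (GRCm38.p6, chr17:79715062-79715311, minus strand, written 5′ to 3′ along the gene). Capitals mark the only match to the core on either strand, which reads GCGTG on the strand opposite to the printed one and begins 76 bases before the start.
Cyp1b1: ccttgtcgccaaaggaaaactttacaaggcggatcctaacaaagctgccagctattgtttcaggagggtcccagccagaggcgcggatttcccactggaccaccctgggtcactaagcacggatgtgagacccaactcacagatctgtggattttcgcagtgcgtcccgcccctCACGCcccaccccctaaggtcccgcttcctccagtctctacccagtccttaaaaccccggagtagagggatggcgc
Such a match is found in 28.2% of 32851 RefSeq promoter windows and is a description of the letters only. RefSeq windows were found for 4 of the 7 genes. Besides Cyp1b1 the window of Hsd11b1 holds the core as well, and those of Cyp19a1 and Sult1e1 do not.

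In estrus Cyp1b1 was at 218, 142, 191, 267 and 162 CPM in ctrl mice (196 ± 48.9 CPM, SD, n = 5). In FL1 mice it was at 37.1, 27.3, 47.9, 50.7 and 53.9 CPM (43.4 ± 11.0 CPM, SD, n = 5). The highest FL1 sample lay far below the lowest ctrl sample. Among the 5 tested members it was the only one without overlap of the lines, beside 3.57% of all genes tested in estrus. None of the 5 was without overlap in diestrus (1.59% of genes) or between the stages in ctrl (3.67%) and FL1 mice (2.42%). Its log2 fold change in estrus was −2.18 (SE 0.24, adjusted p = 5.84e-05 in edgeR), and the gene was called whichever of the 10 samples was left out. The summed level of the luteal markers differed between the same samples without overlap, in the opposite direction, and the part of luteal cells in the result was not tested.

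In diestrus ctrl mice were spread widely, with 124, 25.5, 185, 37.3 and 153 CPM of Cyp1b1 (104.9 ± 70.6 CPM, SD, n = 5). FL1 mice had 115.4, 39.3, 18.9, 31.8 and 28.3 CPM (46.7 ± 39.1 CPM, SD, n = 5). Replicates 2 and 4 of ctrl mice fell among the FL1 samples, and replicate 1 of FL1 mice rose to the level of the higher ctrl samples. That FL1 sample also had the highest summed level of luteal (3101 CPM), smooth muscle (1198 CPM), endothelial (130.3 CPM) and macrophage markers (91.9 CPM) in its group. It was highest as well in theca (2531 CPM without Cyp17a1), red blood cell (1614 CPM) and surface epithelium markers (40.5 CPM). In GC (14640 CPM) and oocyte markers (71.0 CPM) it was lowest. The part of these cells in its Cyp1b1 value was not tested. Between the lines the log2 fold change was −1.16 (SE 0.53, adjusted p = 0.879 in edgeR). The line difference was not shown to differ between the stages (interaction 1.02 on the log2 scale, SE 0.61, unadjusted p = 0.107). Over both stages Cyp1b1 was called lower in FL1 mice (−1.67, SE 0.33, adjusted p = 0.00439), with and without each of the 20 samples.

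Between the stages Cyp1b1 was not called in ctrl mice (log2 fold change −0.90, SE 0.41, adjusted p = 0.397) or in FL1 mice (0.12, SE 0.40, adjusted p = 0.975), where the direction depended on single samples. The genes most like Cyp1b1 over the 20 samples were Ccdc80 (r = 0.81, rho = 0.79), Nudt14 (r = 0.76, rho = 0.76) and Agt, which encodes angiotensinogen (r = 0.76, rho = 0.71). With the group means removed r was 0.60, 0.61 and 0.44, so the group differences carried a part of the likeness.

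The AHR pathway itself showed no called difference. Of its 5 listed genes 4 or 5 were tested, and edgeR and DESeq2 called 0 in each comparison (at most 1 had an unadjusted p under 0.05). In estrus Ahr had a mean of 5.78 CPM in ctrl and 8.64 CPM in FL1 mice (log2 fold change 0.57, SE 0.79, adjusted p = 0.892). Tiparp, which represses AHR and is induced by it, had 167 and 136 CPM (−0.30, SE 0.19, adjusted p = 0.623). Other estrogen hydroxylases were hardly seen. Cyp1a1 had means of at most 0.07 CPM, and Cyp1a2 had no read. The only called gene of the list of estrogen hydroxylation and conjugation was Gstm1, a glutathione transferase, which fell by 1.30 on the log2 scale between estrus and diestrus in ctrl mice (SE 0.28, adjusted p = 0.0299). This call held in 3 of 10 fits with a sample left out, those without ctrl estrus replicate 1 or ctrl diestrus replicates 2 or 3.

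Sult1e1 (ENSMUSG00000029272, chromosome 5, 87575969 to 87591594, minus strand) encodes estrogen sulfotransferase. It had 0 counts in each of the 20 samples. A count of 0 allows up to 3 counts, which is 0.347 to 0.536 CPM depending on the sample, and this limit covers counting error only. Among other conjugating enzymes Sult1a1 had means of 0.06 to 2.53 CPM, and Ugt1a1, Ugt1a6a and Ugt2b34 had no read. Overlap of the Ugt genes with other genes was not examined, so reads shared with a neighbour could be lost.

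**Figure D3:**
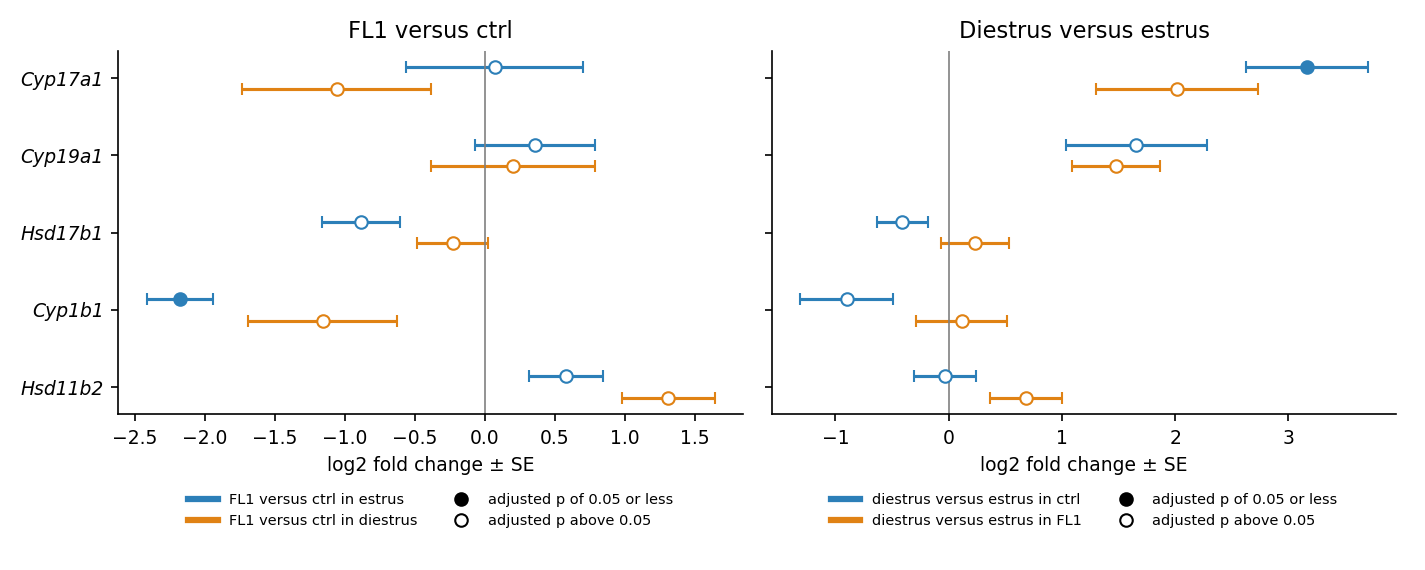
The log2 fold change (± SE, edgeR) of the 5 tested genes is shown between the lines (left) and between the stages (right), with filled points at an adjusted p of 0.05 or less. Cyp1b1 in estrus (−2.18) and Cyp17a1 in ctrl mice (3.16) are the filled points, and Hsd11b2 lies above 0 between the lines in both stages (0.58 and 1.31).

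Hsd11b1 (ENSMUSG00000016194, chromosome 1, 193221634 to 193264075, minus strand) encodes the reductase that regenerates active glucocorticoid. In ctrl mice in estrus the samples had 0, 0, 10, 0 and 0 counts. In FL1 mice in estrus they had 0, 2, 21, 3 and 23 counts, which is 0, 0.25, 3.30, 0.42 and 3.93 CPM. The 10 samples in diestrus had 0 counts, which allows 0.400 to 0.536 CPM in ctrl and 0.409 to 0.508 CPM in FL1 mice. In FL1 mice the mean in estrus was at least 3.32-fold higher than 3 counts in each diestrus library. This bound was 2.09-fold without replicate 5 in estrus and 2.42-fold without replicate 3. In an exact permutation test (two-sided, log2 CPM with a prior count of 2) the difference between diestrus and estrus of FL1 mice was −1.91 with p = 0.0476, and the smallest p that 5 against 5 samples allow is 0.00794. The difference between the lines in estrus was 1.45 with p = 0.206 in the same exact test, and that between the stages in ctrl mice was −0.46 with p = 1.00. Over these 3 comparisons the Benjamini-Hochberg adjusted values were 0.143, 0.310 and 1.00 (exact permutation tests), in the order FL1 stages, lines in estrus and ctrl stages. Of 3 genes that overlap it, only Gm38118 lies on the same strand, and reads shared with it could be lost.

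Hsd11b2 (ENSMUSG00000031891, chromosome 8, 105518755 to 105523988, plus strand) encodes the dehydrogenase that inactivates glucocorticoids and so runs against HSD11B1. Ctrl mice in estrus had 235, 247, 146, 106.3 and 195 CPM (186 ± 59.4 CPM, SD, n = 5). FL1 mice in estrus had 339, 141, 295, 256 and 367 CPM (279 ± 88.4 CPM, SD, n = 5). Of the FL1 samples 4 lay above every ctrl sample, but replicate 2 lay in the lower part of the ctrl range. This gave a log2 fold change of 0.58 (SE 0.27, adjusted p = 0.437 in edgeR).

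In diestrus ctrl mice had 182, 105.4, 133, 274 and 214 CPM of Hsd11b2 (182 ± 66.5 CPM, SD, n = 5), and FL1 mice had 242, 861, 460, 377 and 303 CPM (449 ± 245 CPM, SD, n = 5). Again 4 of 5 FL1 samples exceeded every ctrl sample, and replicate 2 had the highest level of the 20 samples. The log2 fold change was 1.31 (SE 0.33, adjusted p = 0.198 in edgeR), and DESeq2 called it (adjusted p = 0.0090). Over both stages Hsd11b2 was called higher in FL1 mice (0.94, SE 0.23, adjusted p = 0.0363). Leaving out each of the 20 samples in turn kept the call 11 times, with adjusted p-values of 0.0102 to 0.072. It was lost without ctrl estrus replicates 3 or 4, ctrl diestrus replicates 1, 2, 3 or 5, FL1 estrus replicates 1 or 5, or FL1 diestrus replicate 2. Without replicate 2 of FL1 mice in diestrus the log2 fold change was 0.74 (adjusted p = 0.072). Between the stages Hsd11b2 was not called in ctrl mice (−0.03, SE 0.27, adjusted p = 0.987) or in FL1 mice (0.68, SE 0.32, adjusted p = 0.515).

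The genes most like Hsd11b2 over the 20 samples were Gtf2e2 (r = 0.75, rho = 0.75), the non-coding RNA Rian (r = 0.75, rho = 0.76) and Tap1 (r = 0.74, rho = 0.71). Of 11 genes that respond to glucocorticoids 10 were tested in estrus, and 3 were called higher in FL1 mice. They are Sgk1, a kinase (log2 fold change 1.84, SE 0.42, adjusted p = 0.0462), and the metallothioneins Mt1 (1.01, SE 0.19, adjusted p = 0.0125) and Mt2 (1.40, SE 0.21, adjusted p = 0.00227), and each of the 3 also responds to other signals. The call of Sgk1 in estrus held in 2 of 10 fits with a sample left out, those without FL1 replicates 3 or 4, and the value was 1.17 without FL1 replicate 2. Over both stages Sgk1 was called higher in FL1 mice as well. That call held whichever of the 20 samples was left out (adjusted p of 0.00154 to 0.0186 in edgeR). Fkbp5, a chaperone of the glucocorticoid receptor, and Tsc22d3 were not called in any comparison by edgeR. In diestrus 0 of 10 were called by edgeR and DESeq2 (1 had an unadjusted p under 0.05). Between the stages in ctrl mice edgeR called 0 of 10 (4 had an unadjusted p under 0.05), and DESeq2 called 3. Between the stages in FL1 mice Mt1 and Mt2 fell by 1.19 and 2.53 on the log2 scale (SE 0.24 and 0.26, adjusted p = 0.0473 and 0.000319). The call of Mt1 held in 1 of 10 fits with a sample left out, that without diestrus replicate 1.

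The order of the group means differed among the members. Cyp19a1 was highest in diestrus of both lines and Cyp17a1 as well, Hsd17b1 and Cyp1b1 were highest in ctrl mice in estrus, and Hsd11b2 was highest in FL1 mice in diestrus. Neighbours in these orders rarely differed by more than the larger SD of the pair. Of the 3 steps between neighbours none did so for Cyp19a1 and 1 did for each of Hsd17b1 (ctrl mice in estrus over diestrus), Cyp1b1 (the same step), Cyp17a1 (FL1 mice in diestrus over estrus) and Hsd11b2 (FL1 over ctrl mice in estrus), and in no step were the ranges of neighbours apart. Within groups the members varied mostly on their own. With group means removed, Pearson's r over the 20 samples was 0.57 between Cyp19a1 and Hsd17b1 and 0.47 between Hsd17b1 and Cyp17a1, and between −0.23 and 0.20 for the other 8 pairs.

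The route to estrogen begins with cholesterol. Of the 11 genes that supply steroids before estrogen 9 were tested between the lines. Star, which brings cholesterol into the mitochondrion, was called higher in estrus of FL1 mice (log2 fold change 2.10, SE 0.38, adjusted p = 0.0106) and in diestrus (2.25, SE 0.36, adjusted p = 0.00899). Fdx1, which passes electrons to the side chain cleavage enzyme, was called higher in estrus (1.72, SE 0.37, adjusted p = 0.0327), but not without ctrl replicates 1, 2, 3 or 4 or FL1 replicate 1, and it was at 1.09 without FL1 replicate 2. Cyp11a1, the side chain cleavage enzyme itself, was just above the threshold in estrus (1.999, SE 0.47, adjusted p = 0.0563) and called over both stages (1.64, SE 0.35, adjusted p = 0.0107). The other genes tested were not called by edgeR in either stage. DESeq2 called Cyp11a1 in estrus (adjusted p = 0.0424), and also Hsd3b1, which makes progesterone and androstenedione (log2 fold change 0.84, adjusted p = 0.108 in edgeR and 0.00824 in DESeq2), and Cyb5a, a cytochrome that assists CYP17A1 (−0.64, adjusted p = 0.135 in edgeR and 0.0199 in DESeq2). Of the late steps, edgeR called neither Hsd17b1 nor Cyp19a1 between the lines, with log2 fold changes of −0.89 and 0.36 in estrus, where DESeq2 called Hsd17b1 lower (adjusted p = 0.0439). Whether early and late genes differ in their line effect was not tested.

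**Figure D4:**
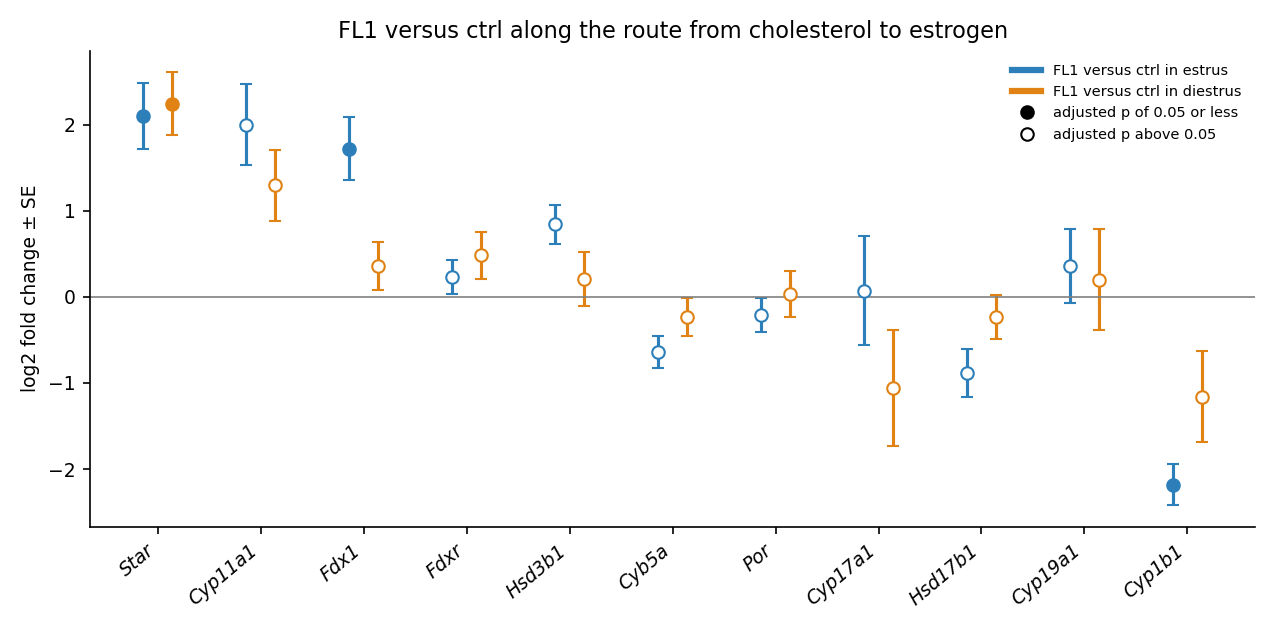
The log2 fold change between FL1 and ctrl mice (± SE, edgeR) is shown in estrus (blue) and diestrus (orange) for genes ordered from cholesterol import to estrogen hydroxylation, with filled points at an adjusted p of 0.05 or less. Star lies at 2.10 and 2.25, Cyp19a1 at 0.36 and 0.20, and Cyp1b1 at −2.18 and −1.16.

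Progestins and androgens are removed by reductases, of which 5 of 9 listed genes were tested. Akr1c18, which inactivates progesterone and is also one of the luteal markers above, was called 16.2-fold higher in estrus of FL1 mice (log2 fold change 4.02, SE 0.50, adjusted p = 0.000306) and not in diestrus (1.64, SE 0.57, adjusted p = 0.592). Of 6 listed receptors for steroids 4 to 6 were tested, and edgeR and DESeq2 called 0 in each comparison (at most 2 had an unadjusted p under 0.05). Esr2, the estrogen receptor of GCs, had means of 164 CPM in ctrl and 103.4 CPM in FL1 mice in estrus (−0.67, SE 0.27, adjusted p = 0.336). The glucocorticoid receptor Nr3c1 had 14.9 and 23.5 CPM (0.65, SE 0.41, adjusted p = 0.626).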

How the data were processed

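RNA of GCs from 20 mice was sequenced from the 3′ end (QuantSeq forward kit). Per the labels and the study's methods, the authors aligned the reads with STAR to GRCm38 and deposited raw read counts for every Ensembl gene, not normalized; the strand setting is not given in the sources used here. Rows of unassigned reads were left out of library sizes, so that 48.9% to 58.4% of the reads in a file counted. Symbols and positions come from GENCODE M21, in which 55227 of 55487 identifiers were found.

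Counts were analysed in R 4.3.3 with edgeR 4.0.16 (TMM, filterByExpr with min.count 10, min.total.count 15 and min.prop 0.7, quasi-likelihood F test without robust estimation, Benjamini-Hochberg adjustment, threshold 0.05). Each comparison used its 10 samples; the interaction and the line effect over both stages used 20. SEs are the log2 fold change divided by the square root of F. Log2 CPM has a prior count of 2. Alternatives were DESeq2 1.42.0, RLE size factors, no filter, 1 fit of 20 samples, a replicate block, and leaving out samples in turn. The code was tested on simulated data. BLAST 2.17.0 found no copy of the members' last 500 nt (90% identity over 100 nt). The members and the lists were chosen with earlier results of these data known. From the lists, genes called in a comparison or lowest in p were to be named, and the 3 genes with the highest r for each tested member; Ahr, Cyb5a, Cyp1a1, Cyp1a2, Esr2, Fbxo32, Fkbp5, Hsd17b2, Hsd3b1, Insl3, Nr3c1, Sult1a1, Tsc22d3, the Ugt genes and others named without a call were added after their values had been seen. Some genes of these pathways are not reported here. Samples are separate mice.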

Additional observations from a re-analysis of the deposited data

Results flagged for a closer look

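A sample far from the other 4 of its group was looked for with Dixon's test in 34 groups of values, those of 6 members and 3 sums of marker genes, where chance gives about 1 in 20. It marked 2 samples. Cyp1b1 of replicate 1 of FL1 mice in diestrus had 115.4 CPM, and the next sample had 39.3 CPM, which is a gap of 0.79 of the range. Without this sample the log2 fold change between diestrus and estrus of FL1 mice was −0.56 in place of 0.12. Hsd11b1 of replicate 3 of ctrl mice in estrus had 1.16 CPM (10 counts), and the other 4 samples had 0. With 4 values at 0 any read in the remaining sample makes the gap equal to the range. This mark was therefore fixed by the zeros and says nothing more.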

How the results depend on the processing

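The calls of Cyp1b1 in estrus and over both stages and of Cyp17a1 in ctrl mice were kept under every alternative run. The number of genes called depended on the test, on the filter and, as given further below, on single samples. With DESeq2 310 genes (2.38% of those tested) were called between the lines in estrus, 86 (0.667%) in diestrus and 377 (2.52%) over both stages, and 423 (3.29%) and 225 (1.72%) between the stages in ctrl and FL1 mice, where edgeR called 100, 32, 181, 175 and 29 (0.769%, 0.248%, 1.21%, 1.36% and 0.221%). Without a filter, over more genes tested, edgeR called 373 (1.55%) in estrus, 55 higher and 52 lower (0.439%) in diestrus, 319 (1.19%) over both stages, 348 (1.45%) and 299 (1.23%) between the stages, and 6 (0.0223%) for the interaction, where 0 were called with the filter. In 1 fit of all 20 samples 65 genes (0.435%) were called between the stages in FL1 mice. Among the members DESeq2 called 2 in estrus (Cyp1b1, Hsd17b1), 1 in diestrus (Hsd11b2) and 1 between the stages in FL1 mice (Cyp19a1). Without a filter these were 2, 1 and 2 (with Cyp17a1), and 2 between the stages in ctrl mice (with Cyp19a1). RLE size factors changed no call of a member.

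Replicate numbers mark different mice and did not pair them (correlations of deviations from group means −0.17 to 0.12, 1 of 30 above 0.1). With the replicate block 58 genes (0.446%) were called between the lines in estrus and 13 (0.101%) in diestrus, and 1 member was called over both stages, where Hsd11b2 was no longer called (adjusted p = 0.0758). The block reversed Cyp17a1 between the lines in estrus (−0.47), Cyp1b1 between the stages in FL1 mice (−0.18) and the interaction of Cyp19a1 (0.071).

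With 1 sample left out edgeR called 0.490% to 0.966% of the genes tested between the lines in estrus, 0.158% to 0.237% in diestrus and 0.901% to 1.35% over both stages, 0.583% to 1.31% between the stages in ctrl mice, 0.0958% to 1.31% in FL1 mice, and 0% to 0% for the interaction. The members called ranged from 1 to 1, 0 to 0, 1 to 2, 1 to 2, 0 to 1 and 0 to 0. The number called moved by more than 1.5 times without FL1 replicate 1 in estrus (66 genes, 0.490%) and FL1 replicate 4 in diestrus (21, 0.158%) between the lines, without ctrl estrus replicates 2 (0.660%), 3 (0.682%) and 4 (0.754%) and ctrl diestrus replicates 3 (0.783%) and 5 (0.583%) between the stages in ctrl mice, and without FL1 diestrus replicates 1 (178 genes, 1.31%), 2 (0.133%), 3 (0.0958%), 4 (0.104%) and 5 (0.103%) in FL1 mice. Some values that were not called changed direction. Between the lines these were Cyp17a1 in estrus, at −0.21 to 0.37 and negative without FL1 replicates 1, 3 or 5, Cyp19a1 in estrus, at −0.15 to 0.69 and negative without FL1 replicate 5, and Cyp19a1 in diestrus, at −0.11 to 0.58 and negative without ctrl replicate 4 or FL1 replicate 4. Between the stages Hsd11b2 in ctrl mice ran from −0.23 to 0.12, positive without estrus replicates 1 or 2 or diestrus replicates 2 or 3, and Cyp1b1 in FL1 mice from −0.56 to 0.32, negative without estrus replicate 2 or diestrus replicate 1. The interaction of Cyp19a1 ran from −0.49 to 0.35, positive without ctrl diestrus replicates 1 or 2 or FL1 estrus replicate 5. The causes were not tested. With a prior count of 0.5 the exact p-value of Hsd11b1 between the lines in estrus was 0.127, and that between the stages in FL1 mice stayed at 0.0476. At the depth of these libraries, genes near 1 CPM such as Hsd11b1 rest on few reads.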
